A study of Mus musculus with 6 samples.

Results

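AP-1 is a family of paired transcription factors, and the 10 genes described here are its FOS and JUN subunits together with 3 further immediate early genes. They were taken by Ensembl identifier from a table of 62492 gene rows: FOS, FOSB, FOSL1 and FOSL2 of the FOS family, JUN, JUNB and JUND of the JUN family, and EGR1, IER2 and IER3. All 10 were found, and all 10 lay above 1 FPKM (fragment numbers divided by gene length and by the library's fragments) in each of the 6 libraries, so none entered the tests through 1 group alone. In the order given, their identifiers are ENSG00000170345, ENSG00000125740, ENSG00000175592, ENSG00000075426, ENSG00000177606, ENSG00000171223, ENSG00000130522, ENSG00000120738, ENSG00000160888 and ENSG00000137331. The symbols come from the rule that chose the genes, since the table gives identifiers without names. The label of the group as transcription factors does not hold for all of them, because IER3 is not a DNA-binding protein.

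The libraries are bulk RNA-seq of A375, an established human melanoma line with an activating BRAF mutation, transduced with lentivirus that carries Cas9 and a guide RNA and held under puromycin (10 µg/mL). RNA was taken 7 days after selection. Guides were directed against ABCE1 (2 libraries), against YAE1 (2 libraries) or, as controls, against LacZ or Luciferase (2 libraries), so that all groups carried Cas9 and a guide and the controls carried no guide against a gene of the cells. The cells were transduced populations, and the share of edited cells is not given in the sources used here. Whether a group's libraries stem from separate cultures or guides is not stated, and the p-values then describe the spread between these libraries alone, which can be technical. The species is entered in the labels as Mus musculus, whereas the cell type is given as human and every identifier in the table is human. In the genotype field, replicate 2 of ABCE1 and of YAE1 carries a gene name ending in 2, and the groups were therefore taken from the titles. The rows of ABCE1 and YAE1, of melanoma markers and of other genes of the pathway were not analysed here, because the table does not pair identifiers with symbols.

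As background, FOS proteins bind DNA as dimers, typically with a JUN protein, whereas JUN proteins can also pair with one another. Many of these genes are immediate early genes: their transcription starts within minutes of a growth factor, cytokine or stress signal, through factors already present in the cell and through the ERK, JNK and p38 kinases, and their mRNAs are short-lived. FOSL1 differs in that sustained ERK signalling, as in BRAF-mutant melanoma, keeps it high. ABCE1 is the ATPase that separates ribosomal subunits after termination, and YAE1 is part of the adaptor that brings the iron-sulfur cluster to ABCE1.

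The libraries held 15713011 to 18399717.5 assigned fragments, worked out from the steps between FPKM values, in which a fragment can count as 0.5. Behind the members lay at least 87 fragments (FOS in a control library, a counting error of 10.7%) and at most 4925.5 (EGR1 in an ABCE1 library, 1.42%). These errors cover counting only. In bulk RNA, a change in the share of cells that express a gene and a change in RNA per cell cannot be told apart.

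With ABCE1 guides EGR1, FOS, JUNB and IER2 stood farthest above the controls. EGR1 was at 14.9 times the control mean in FPKM, FOS at 9.28 times, JUNB at 4.73 times and IER2 at 4 times. With YAE1 guides these genes stood at smaller multiples, 6.88 times for EGR1, 5.14 times for FOS, 3.16 times for JUNB and 2.53 times for IER2. Other members rose less, from 3.3 times for FOSB to 1.38 times for FOSL2 with ABCE1 guides. With YAE1 guides they ranged from 1.78 times for JUN to 1.06 times for FOSL2. FOSL1 was the only member with means below the controls, at 0.827 times with ABCE1 guides and 0.547 times with YAE1 guides. By limma on log2(FPKM + 1), with a threshold of adjusted p = 0.05, 9 of the 10 members were called higher and 0 lower with ABCE1 guides, and 7 were called higher and 1 lower with YAE1 guides. Calls were common among all genes. Of 12578 genes tested, 57.9% were called with ABCE1 guides (37.5% higher, 20.4% lower) and 51.8% with YAE1 guides (34.2% higher, 17.6% lower). The members' median difference came to 1.30 with ABCE1 guides and 0.72 with YAE1 guides, beside 0.10 over all tested genes in each comparison. Called higher and at least 2-fold up on this scale were 6 members with ABCE1 guides, where 4.4% of tested genes were, and 4 with YAE1 guides, where 2.2% were. The members were chosen with earlier results of these data known, so these counts and medians describe them and are not independent evidence. The libraries of the groups compared did not overlap for any of the 10 members, but that held for 81.5% of all tested genes with ABCE1 guides and for 77.7% with YAE1 guides. The 0 called lower with ABCE1 guides was also 0 at an unadjusted p under 0.05, but 1 (FOSL1) by voom on the fragment numbers. Both comparisons use the same 2 control libraries, so their likeness is not independent evidence.

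The split of calls over all genes depended on scaling. On the deposited scale 64.8% of the calls with ABCE1 guides and 66% of those with YAE1 guides were higher, whereas after each library was centred on its median gene the share came to 45.5% with ABCE1 guides and 49.1% with YAE1 guides, and quantile normalization gave 49% with ABCE1 guides and 52.2% with YAE1 guides. Centring moved the median gene by -0.139 on the log2 scale with ABCE1 guides and by -0.097 with YAE1 guides. Measured from the median tested gene, the differences with ABCE1 guides were 3.61 for EGR1, 2.53 for FOS, 2.05 for JUNB, 1.76 for IER2 and -0.38 for FOSL1. With YAE1 guides they were 2.51 for EGR1, 1.75 for FOS, 1.49 for JUNB, 1.13 for IER2 and -0.96 for FOSL1.

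**Figure D1:**
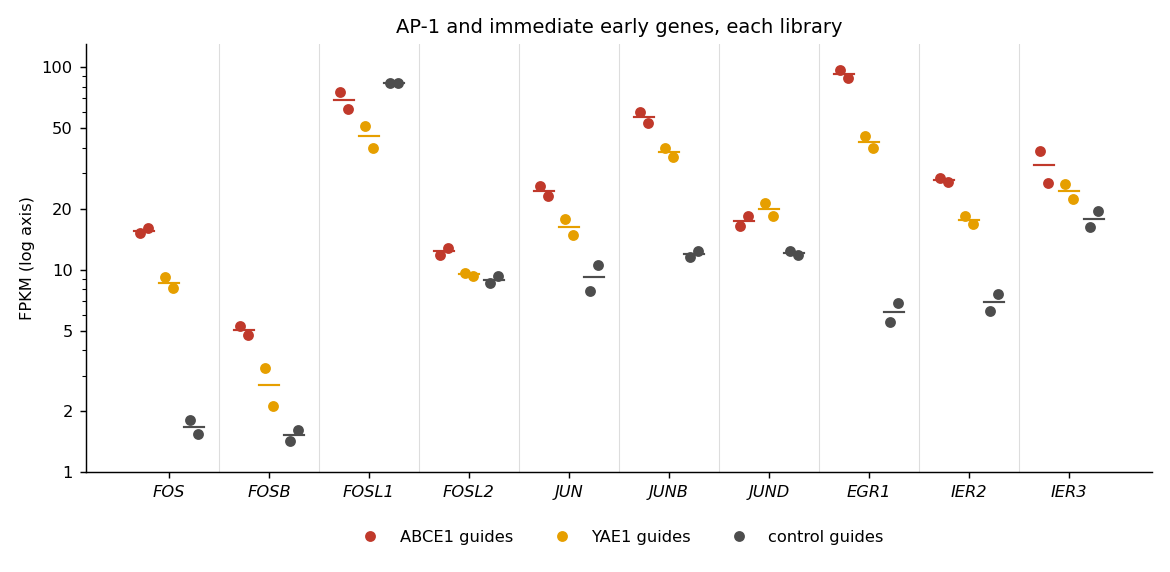
FPKM of the 10 genes in each library on a log axis, with ABCE1 guides (red), YAE1 guides (orange) and control guides (grey); points are libraries and short bars the mean of 2. EGR1 lies at 88.8 FPKM or above with ABCE1 guides, at 39.6 or above with YAE1 guides and at 6.85 or below in the controls, while FOSL1 is highest in the controls.

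In the FOS family, FOS itself, the classical immediate early subunit, was near the bottom of the members in the controls and showed the largest relative change of the family. FOS was measured at 15.2 and 16.0 FPKM with ABCE1 guides, at 9.17 and 8.09 FPKM with YAE1 guides and at 1.81 and 1.55 FPKM with control guides. The 3 groups were fully apart, and the lower ABCE1 library was 8.396 times the higher control library. On the log2(FPKM + 1) scale FOS rose by 2.63 ± 0.08 with ABCE1 guides (SE, limma adjusted p = 7.6e-06) and by 1.85 ± 0.08 with YAE1 guides (adjusted p = 3.8e-05). It ranked 29th from the top of the 12578 tested genes with ABCE1 guides and 30th with YAE1 guides. This scale understates the change of a gene as low as FOS in the controls: with a pseudocount of 0.1 in place of 1 the difference came to 3.14 with ABCE1 guides and to 2.30 with YAE1 guides.

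FOSB, like FOS an immediate early subunit, was the lowest member in both knockouts. It stood at 5.29 and 4.77 FPKM with ABCE1 guides, at 3.27 and 2.14 FPKM with YAE1 guides and at 1.43 and 1.62 FPKM with control guides. The groups did not overlap, but the YAE1 libraries differed from each other by more than the controls did. FOSB rose by 1.26 ± 0.15 with ABCE1 guides (limma adjusted p = 0.0005). As for FOS, the scale understates its change: a pseudocount of 0.1 gave 1.66 with ABCE1 guides and 0.76 with YAE1 guides. The rise with YAE1 guides, 0.54 ± 0.15 (limma adjusted p = 0.021), rested on single libraries and on settings: it was 0.31 without YAE1 replicate 1 (adjusted p = 0.056), and the call was also lost without control replicate 1 (0.48, adjusted p = 0.098) or control replicate 2 (0.59, adjusted p = 0.054), with quantile normalization (0.38, adjusted p = 0.078) and with no filter on low genes (0.54, adjusted p = 0.11).

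FOSL1, which encodes FRA-1, was the most abundant member in the controls and did not follow FOS and FOSB. Its level was 75.6 and 62.3 FPKM with ABCE1 guides, 51.4 and 39.8 FPKM with YAE1 guides and 83.2 and 83.7 FPKM with control guides. All 4 knockout libraries lay below both controls, and the YAE1 libraries lay below the ABCE1 libraries. FOSL1 fell by 0.87 ± 0.13 on the log2(FPKM + 1) scale with YAE1 guides (limma adjusted p = 0.0019), and 2.35% of tested genes had a lower value. With ABCE1 guides the difference was -0.28 ± 0.13 (95% interval -0.59 to 0.03, limma adjusted p = 0.11). It passed under 4 alternatives: centring on the median gene (-0.42, adjusted p = 0.034), only the 4 libraries compared (-0.28, adjusted p = 0.04), voom on the fragment numbers (-0.28, adjusted p = 0.018) and the replicate number as a block (-0.28, adjusted p = 0.043). Without ABCE1 replicate 1 it was -0.42, and without ABCE1 replicate 2 it was -0.14.

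FOSL2, which encodes FRA-2, differed less from the controls than FOS or FOSB with ABCE1 guides, at 1.38 times the control mean. It was at 11.9 and 12.8 FPKM with ABCE1 guides, at 9.65 and 9.30 FPKM with YAE1 guides and at 8.62 and 9.27 FPKM with control guides. The ABCE1 libraries were apart from the rest, whereas the lower YAE1 library was only 1.003 times the higher control. FOSL2 rose by 0.42 ± 0.06 with ABCE1 guides (limma adjusted p = 0.0013). With YAE1 guides the difference was 0.08 ± 0.06 (95% interval -0.07 to 0.22, limma adjusted p = 0.34), and its sign turned when libraries were centred on the median gene (-0.02).

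In the JUN family, all 3 genes were called higher in both knockouts, with JUNB far ahead. JUN, the classical partner of FOS, was at 26.0 and 23.0 FPKM with ABCE1 guides, at 17.8 and 14.8 FPKM with YAE1 guides and at 7.82 and 10.5 FPKM with control guides. The groups did not overlap, although the controls differed from each other by more than those of any other JUN gene. JUN rose by 1.34 ± 0.14 with ABCE1 guides (limma adjusted p = 0.00034) and by 0.78 ± 0.14 with YAE1 guides (adjusted p = 0.0043).

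JUNB, an immediate early member that is a weaker activator than JUN in many settings, had 60.2 and 53.1 FPKM with ABCE1 guides, 39.8 and 36.0 FPKM with YAE1 guides and 11.6 and 12.4 FPKM with control guides. Each pair of libraries was tight against these gaps, the lower YAE1 library being 2.901 times the higher control. JUNB rose by 2.15 ± 0.08 with ABCE1 guides (limma adjusted p = 1.2e-05) and by 1.58 ± 0.08 with YAE1 guides (adjusted p = 4.4e-05), and ranked 55th from the top of all tested genes in both comparisons.

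JUND, the JUN gene that most cells express steadily rather than on stimulation, changed less. It was at 16.4 and 18.4 FPKM with ABCE1 guides, at 21.4 and 18.5 FPKM with YAE1 guides and at 12.4 and 11.9 FPKM with control guides. The knockout libraries all lay above the controls, and JUND was the only member whose mean was higher with YAE1 than with ABCE1 guides. Its rise was 0.48 ± 0.08 with ABCE1 guides (limma adjusted p = 0.0028) and 0.67 ± 0.08 with YAE1 guides (adjusted p = 0.00094).

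Among the immediate early genes outside AP-1, EGR1, a zinc-finger factor that serum and ERK signalling induce, had the largest difference of the 10 members. EGR1 was at 96.2 and 88.8 FPKM with ABCE1 guides, at 45.6 and 39.6 FPKM with YAE1 guides and at 5.54 and 6.85 FPKM with control guides. The 3 groups were widely apart, with the lower ABCE1 library 12.96 times and the lower YAE1 library 5.788 times the higher control. EGR1 rose by 3.70 ± 0.10 on the log2(FPKM + 1) scale with ABCE1 guides (limma adjusted p = 7.5e-06) and by 2.60 ± 0.10 with YAE1 guides (adjusted p = 3.4e-05). Only 4 of the 12578 tested genes had a larger rise with ABCE1 guides, and only 2 with YAE1 guides.

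IER2, a nuclear protein of the early growth factor response, was at 28.5 and 27.0 FPKM with ABCE1 guides, at 18.3 and 16.8 FPKM with YAE1 guides and at 6.28 and 7.59 FPKM with control guides. These groups were also apart. IER2 rose by 1.86 ± 0.09 with ABCE1 guides (limma adjusted p = 2e-05) and by 1.23 ± 0.09 with YAE1 guides (adjusted p = 0.00011).

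IER3, a stress-induced regulator of cell survival and of ERK signalling, had a wide spread between the ABCE1 libraries. Its values were 38.6 and 26.8 FPKM with ABCE1 guides, 26.3 and 22.4 FPKM with YAE1 guides and 16.2 and 19.4 FPKM with control guides. The lower ABCE1 library lay just above the higher YAE1 library. IER3 rose by 0.82 ± 0.17 with ABCE1 guides (limma adjusted p = 0.0062). The size of this rise depended on the library: it was 0.57 without ABCE1 replicate 1 and 1.08 without ABCE1 replicate 2. With YAE1 guides the difference was 0.43 ± 0.17 (95% interval 0.02 to 0.84, limma adjusted p = 0.074), which passed with only the 4 libraries compared (0.43, adjusted p = 0.022) and with voom (0.45, adjusted p = 0.02). It did not pass under the other 9 of 11 alternatives.

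**Figure D2:**
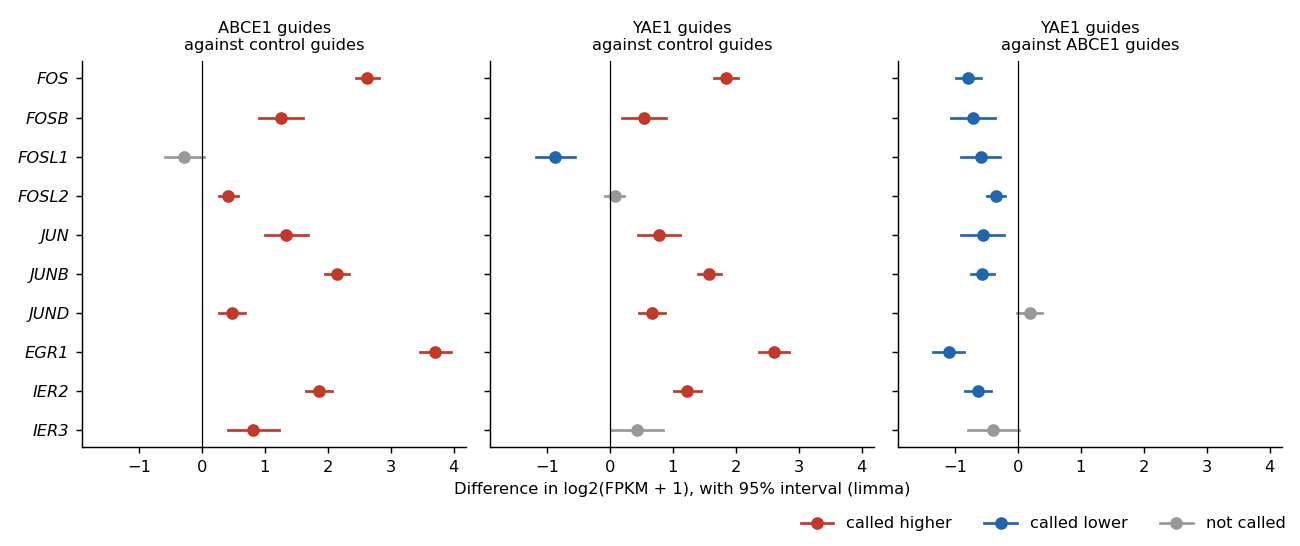
Difference in log2(FPKM + 1) of each gene in the 3 comparisons, with 95% intervals from limma (n = 2 libraries per group); colours give the call at adjusted p under 0.05. EGR1 is farthest to the right at 3.70 and 2.60 against the controls, FOSL1 is left of 0 in both, and 9 of the 10 genes are left of 0 when YAE1 guides are set against ABCE1 guides.

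**Figure D3:**
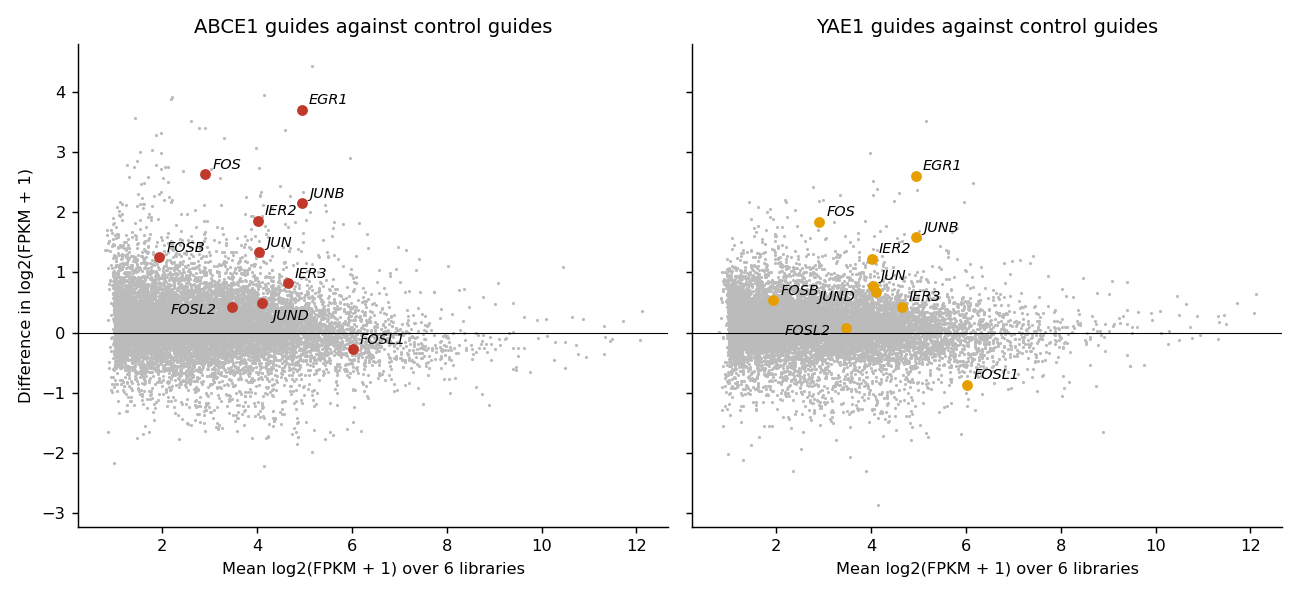
Difference in log2(FPKM + 1) against the controls (vertical axis) by mean log2(FPKM + 1) over the 6 libraries (horizontal axis) for the 12578 genes tested (grey) with the 10 members coloured and named. EGR1, FOS, JUNB and IER2 stand above the bulk of genes of like abundance in both panels, whereas FOSL2 lies within it.

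The makeup of the FOS and JUN transcripts differed between the groups. FPKM is scaled to gene length, so levels of different genes can be added, although sums and shares depend on the gene lengths used. FOSL1 made up 70 and 65% of the summed FOS family FPKM with ABCE1 guides, 69.9 and 67.1% with YAE1 guides and 87.5 and 87% with control guides. FOS made up 14.1 and 16.7% with ABCE1 guides, 12.5 and 13.6% with YAE1 guides and 1.9 and 1.61% with control guides. FOSL1 thus remained the largest FOS family transcript in each library, while FOSL1 FPKM was 4.98 and 3.9 times FOS FPKM with ABCE1 guides, 5.6 and 4.92 times with YAE1 guides and 46 and 54 times with control guides.

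The summed FOS family came to 107.9 and 95.87 FPKM with ABCE1 guides, 73.51 and 59.31 FPKM with YAE1 guides and 95.06 and 96.1 FPKM with control guides. The ABCE1 libraries thus overlapped the controls, and the YAE1 libraries lay below both. The summed JUN family came to 102.6 and 94.55 FPKM with ABCE1 guides, 79.07 and 69.29 FPKM with YAE1 guides and 31.74 and 34.8 FPKM with control guides, with no overlap between groups. The FOS to JUN ratio of the sums was 1.05 and 1.01 with ABCE1 guides, 0.93 and 0.856 with YAE1 guides and 3 and 2.76 with control guides. Within the JUN family, JUNB made up 58.7 and 56.2% with ABCE1 guides, 50.4 and 52% with YAE1 guides and 36.4 and 35.7% with control guides. JUND made up 15.9 and 19.4% with ABCE1 guides, 27.1 and 26.6% with YAE1 guides and 39 and 34.1% with control guides. JUNB was the leading JUN transcript in each knockout library. It was 3.68 and 2.89 times JUND with ABCE1 guides and 1.86 and 1.95 times with YAE1 guides. With control guides it was about level with JUND (0.934 and 1.05 times). These sums and shares are descriptions of mRNA and were not tested.

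**Figure D4:**
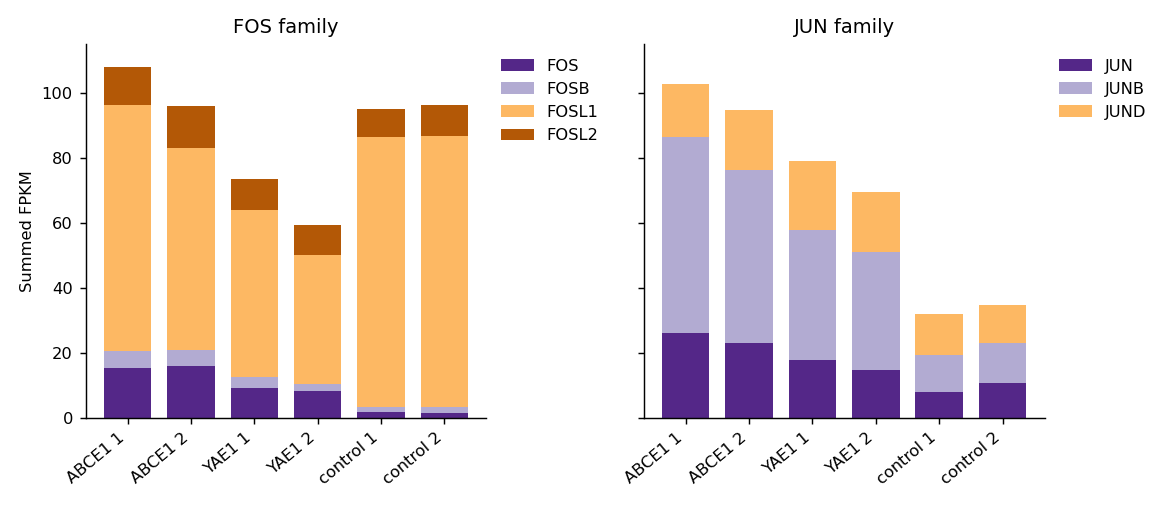
Summed FPKM of the FOS family (left) and the JUN family (right) in each library, stacked by gene, with ABCE1, YAE1 and control libraries from left to right. FOSL1 fills most of each FOS bar, and the JUN bars reach 94.55 FPKM or more with ABCE1 guides, 69.29 or more with YAE1 guides and at most 34.8 in the controls, with JUNB as the tallest segment in the knockouts.

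The order of the levels differed as well. With ABCE1 guides EGR1 was the most abundant member, followed by FOSL1 and JUNB, then IER3 and IER2, whose libraries overlapped, and then JUN, JUND, FOS, FOSL2 and FOSB. With YAE1 guides FOSL1, EGR1 and JUNB led with overlapping libraries, followed by IER3 and JUND, then by IER2 and JUN, which overlapped, and by FOSL2, FOS and FOSB. With control guides FOSL1 led, IER3 came next, JUNB overlapped JUND, JUN overlapped FOSL2, IER2 overlapped EGR1, and FOS overlapped FOSB at the bottom. EGR1 was thus 1st of the 10 members in both ABCE1 libraries, 2nd in both YAE1 libraries and 8th in both controls.

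Set directly against each other, YAE1 guides gave levels called lower than those with ABCE1 guides for 8 of the 10 members, and 0 were called higher (0 also at an unadjusted p under 0.05 and with voom). Over all genes 34% were called in this comparison, 15.3% higher and 18.7% lower, with a median difference of -0.01, beside -0.58 for the members. Of all calls 45.1% were higher, and 56% after centring on the median gene. The libraries did not overlap for any member, nor for 70.2% of all tested genes. EGR1 differed most, as the only member called at least 2-fold lower on the log2(FPKM + 1) scale, where 0.755% of tested genes were. It was at 0.461 times its ABCE1 level in mean FPKM (log2 difference -1.10 ± 0.10, limma adjusted p = 0.0023), and 0.549% of tested genes had a lower value. FOS was at 0.554 times (-0.79 ± 0.08, limma adjusted p = 0.0026) and FOSB at 0.537 times (-0.72 ± 0.15, limma adjusted p = 0.013). The order of FOS and FOSB turned with a pseudocount of 0.1 (-0.85 for FOS and -0.90 for FOSB). The others called lower were IER2 (-0.63 ± 0.09), FOSL1 (-0.59 ± 0.13), JUNB (-0.57 ± 0.08), JUN (-0.56 ± 0.14) and FOSL2 (-0.35 ± 0.06), with limma adjusted p = 0.0044 to 0.025. FOSL1 had another order than the genes that rose: its YAE1 level was below its ABCE1 level while the controls were highest, whereas EGR1, FOS, JUNB, JUN and IER2 with YAE1 guides lay between the ABCE1 libraries and the controls. JUND (0.19 ± 0.08, 95% interval -0.01 to 0.39, limma adjusted p = 0.13) and IER3 (-0.39 ± 0.17, 95% interval -0.80 to 0.02, limma adjusted p = 0.12) did not pass.

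The call for JUN between the knockouts was lost without ABCE1 replicate 1 (adjusted p = 0.12), without ABCE1 replicate 2 (0.062), without YAE1 replicate 2 (0.1) and with no filter (0.13). Those for FOSB and FOSL1 were lost without ABCE1 replicate 1 (0.071 and 0.084) and with no filter (0.076 and 0.096), and that for FOSL2 without ABCE1 replicate 2 (0.054). IER3 passed without ABCE1 replicate 2 (-0.65, adjusted p = 0.035) and with voom (-0.40, adjusted p = 0.035) but was at -0.14 without ABCE1 replicate 1, and JUND passed without YAE1 replicate 2 (0.29, adjusted p = 0.046). Calls for EGR1, FOS, JUNB and IER2 held under all 11 alternatives in each of the 3 comparisons.

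The members fell into patterns of unlike size over the 6 libraries. Likeness was measured as the root mean square distance between log2(FPKM + 1) values, each gene set against its own mean, with 3 groups behind the 6 points. FOS was 16th closest to EGR1 among the 12577 other tested genes, at a distance of 0.468, where the median gene lay at 1.52. JUNB was 36th and IER2 75th, and FOSL1 was 11577th, at 1.77. The distance is not scaled for the size of a change, so it also reflects how far a gene rose. In the other direction EGR1 was 1313th closest to JUNB and 7407th closest to IER2, at 0.782, where the median gene lay at 0.745. JUNB was 13th closest to FOS (0.221), IER2 was 18th closest to JUNB (0.162), and JUN and FOSB were within 0.139 of each other, JUN being 37th closest to FOSB. The pseudocount of 1 shrinks the changes of FOS and FOSB, which were low in the controls, so these distances depend on it. With a pseudocount of 0.1 the ABCE1 differences were 3.14 for FOS, 3.89 for EGR1 and 2.23 for JUNB. They were 1.66 for FOSB and 1.42 for JUN. Likeness at that pseudocount was not tested. For FOSL2 the nearest member was IER3, only 7294th among all tested genes, and for JUND it was FOSL2, 5374th. This is a description over libraries that share their groups, and other genes nearer to EGR1 are not named because the table holds no symbols for them.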

How the data were processed

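RNA-seq of 6 A375 libraries (2 per group) was analysed. Per the labels' protocols, total RNA (1 µg) went into strand-specific libraries that were sequenced as paired 150 bp reads. The authors deposited FPKM values per gene and library, and these were used as deposited. Per the submitters' processing notes the build was GRCh37. An aligner, a counting program, an annotation or the use of strand in counting is not given in the sources used here. Tests ran on log2(FPKM + 1) for the 12578 genes averaging 1 FPKM or more, in limma 3.58.1 under R 4.3.3 (group means fitted to all 6 libraries, trended eBayes, Benjamini-Hochberg adjustment over these genes, threshold 0.05; 3 residual degrees of freedom, 3.62 added by moderation). Errors are SE.

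Fragment numbers are the smallest that make each value of a gene a multiple of 0.5 fragments (tolerance 2e-05), found for all 38269 genes above 0. Any factor that all 6 numbers of a gene share cannot be seen in this way. The fragment numbers and the limma fit were also run on simulated data. For the fit, the simulated spread beyond counting was a set value, not one taken from these libraries. It therefore does not measure the rate of false calls here. Libraries of 1 group differed beyond sampling noise (chi-square per degree of freedom 2.24 to 4.61).

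All 10 members were named in every comparison. The members and lists were chosen with earlier results of these data known. The symbol lists (other immediate early genes, AP-1 partners and targets, upstream kinases, cell markers) were not used, because the reference tables hold mouse genes and 0 of 62492 identifiers matched. No human sequence was analysed. Alternatives covered the pseudocount, the filter, 2 scalings, the libraries in the fit, voom, each library left out and a replicate block.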

Additional observations from a re-analysis of the deposited data

Results flagged for a closer look

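The effects of the YAE1 and ABCE1 guides, each against the same controls, differed by limma's test of the difference (adjusted p under 0.05) for 8 members. This is the direct comparison of YAE1 with ABCE1 guides described above, not a further test. Of all tested genes, 34% were called in it, and 18.7% were called lower. The YAE1 effect minus the ABCE1 effect on the log2 scale was -1.10 for EGR1, -0.79 for FOS, -0.72 for FOSB, -0.63 for IER2, -0.59 for FOSL1, -0.57 for JUNB, -0.56 for JUN and -0.35 for FOSL2. For 7 of them the difference means a smaller rise with YAE1 guides or, for FOSL2, one that did not pass, and for FOSL1 a level farther below the controls. Outlying samples were not looked for, as groups of 2 libraries are too small.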

How the results depend on the processing

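With ABCE1 guides 9 members were called higher under every alternative run, and with YAE1 guides 6 to 8 were higher and 1 lower. Calls were common among all genes too: on the deposited scale 37.5% of tested genes were called higher with ABCE1 guides and 34.2% with YAE1 guides. After centring, 3271 of the 12578 tested genes were called higher with ABCE1 guides and 3014 with YAE1 guides. Members called lower with ABCE1 guides were 0, and 1 (FOSL1) after centring, with only the 4 libraries compared, with voom and with the replicate block. FOSL2 with YAE1 guides turned to -0.02 after centring and to -0.0048 with quantile normalization; the cause was not tested. Between the knockouts, 8 members were called lower, and 5 with no filter, where 38269 genes were tested. Leaving out 1 library gave 5 to 8 lower and 0 to 1 higher (JUND). Over all genes, calls with ABCE1 guides went to 3915 lower after centring, against 2563, while 1 library fewer gave 3754 to 3866 higher and 1937 to 2081 lower. With YAE1 guides 1 library fewer gave 3037 to 3867 higher and 1509 to 2140 lower. Between the knockouts 1 library fewer gave 835 to 1641 higher and 976 to 2080 lower, and no filter gave 907 and 1184, against 1928 and 2351. Same-numbered libraries did not deviate together (correlations -0.053 to -0.009 across genes), which cannot show whether they were prepared in pairs. The replicate block gave 4579 higher and 2479 lower genes with ABCE1 guides, and FOSL1 was the only member whose call it changed. A group left with 1 library was assumed to vary like the others. With 2 libraries a group, intervals are wide: those of FOSL1, FOSL2, JUND and IER3 include 0 in 1 comparison or more, which does not show that levels were equal.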
